A study of Sus scrofa with 15 samples.

Results

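Interferon-stimulated genes were read out in the testes of piglets on 5 diets. They were chosen by name, from a list of 47 genes that interferons are known to induce, headed by the ubiquitin ligase gene RNF213. The list was drawn up with earlier results of these data known, and was matched to the gene symbols of the deposited table. The table lists 43 of the 47 among 30476 genes. RNF213, IFIT3, XAF1 and GBP1 were not analysed here. Of the 43 genes, 40 had enough reads to be tested among 15634 tested genes, and ISG20, OASL and UBA7 did not, with at most 16 reads in any library.

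The libraries came from testes of male Dutch Landrace Duroc piglets at postnatal day 21. All piglets had suckled until postnatal day 2 and then drank from bowls. The diets compared were sow milk (Sow), a cow's milk formula (Milk), a soy formula (Soy), the cow's milk formula with 17beta estradiol added to reach 15 to 30 pmol/L in serum (M + E2), and the cow's milk formula with genistein, a soy isoflavone (M + G). For genistein, the labels give 84 mg/L as a serum concentration and the study's methods give it as a concentration in the diet. For estradiol, the range in pmol/L was a target and not the exposure reached. The serum estradiol that the study reported for the estradiol diet was far above this target. Each group had 3 libraries, with 6097552 to 9488579 reads counted on genes per library. In Sow and in Soy 1 library carries no number and is called unnumbered. The study left out Sow 2, so the fitted changes below rest on 2 Sow libraries, and the levels of Sow 2 are given beside them. No source used here ties each library to a piglet, and p-values measure only the spread between these libraries.

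Interferons are secreted proteins that warn cells of viral infection. Type I interferons bind the receptor IFNAR1 and IFNAR2, the kinases JAK1 and TYK2 are activated, and a complex that holds STAT2 and IRF9 switches on interferon-stimulated genes through a promoter element called ISRE. Type II interferon acts through IFNGR1 and IFNGR2, and induces IRF1 and genes of antigen presentation. The products sense viral RNA (IFIH1, DDX58, DHX58, EIF2AK2), attach the ubiquitin-like protein ISG15 to other proteins (HERC5, TRIM25), or block viruses directly (MX1, OAS1, IFIT1, RSAD2, BST2). Many of these genes keep a basal level in uninfected tissue. The testis holds resident macrophages, and its Sertoli and Leydig cells can answer interferon too.

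Samples were checked as testis by cell type markers. All 7 Sertoli cell markers and 4 of 6 Leydig cell markers were listed, and their summed levels were 1340 to 3320 and 10300 to 24800 CPM. CPM here means reads per 1000000 reads on genes, after normalization between libraries. Of 8 T and NK cell markers, CD3G was at 0 in every library, and the summed level of the list was 18.7 to 46.6 CPM.

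The clearest pattern was that sow milk libraries held more of a subset of these genes than formula libraries. IFI6, a small mitochondrial protein gene of the antiviral response, and IFI44L, another interferon-induced gene, fell in M + E2 relative to Sow and were the called members. Another 6 genes had all 12 formula libraries below all 3 Sow libraries: EIF2AK2, EPSTI1, GBP2, IFIH1, IFIT1 and IFIT5. With IFI6 and IFI44L these made 8 of the 40 members, beside 8.73% of all tested genes. B2M, BST2 and IFI44 had 11 of 12 formula libraries below the lowest Sow library. The share of all genes at this looser cutoff was not computed. EPSTI1, another interferon-induced gene, was at 16.1 to 18.2 CPM in Sow and 8.54 to 14 CPM in the formula libraries, and GBP2, a guanylate-binding protein of cell-autonomous defense, at 16.2 to 21.8 and 8.72 to 15.5 CPM. None of the transcription factor genes (STAT2, IRF1, IRF7, IRF9) and none of the PARP genes was among these 11. These groups are small and 8.73% of all genes met the stricter cutoff, so their absence says little.

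**Figure D1:**
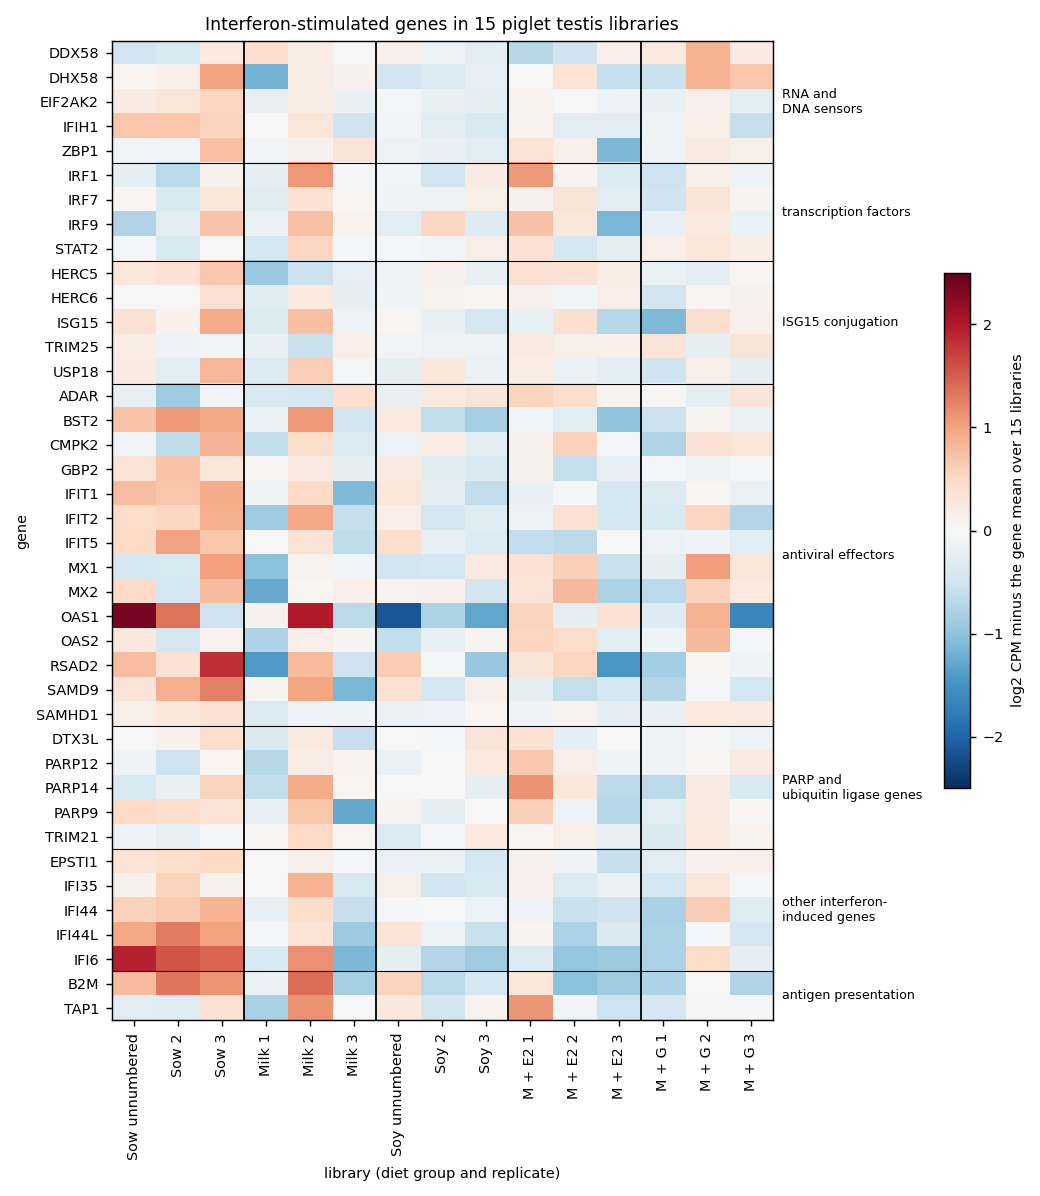
Level of the 40 tested members (rows, grouped by role) in the 15 libraries (columns, grouped by diet). Color gives log2 CPM minus the gene's mean over all libraries, red for above and blue for below. IFI6, IFI44L, IFIT1, IFIT5 and IFIH1 are red in all 3 Sow libraries, while Milk 2 is red for most genes and Milk 1 and M + G 1 are blue for most.

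IFI6 (ENSSSCG00000034570) lies on chromosome 6 from 84852782 to 84858072 of Sscrofa11.1. Its level was 278 CPM in Sow unnumbered, 214 CPM in Sow 2 and 197 CPM in Sow 3. It was 55.1, 158 and 32.8 CPM in Milk 1 to 3, and 61.1, 43.1 and 38.9 CPM in Soy unnumbered, 2 and 3. In M + E2 1 to 3 it was 57.3, 36.7 and 38.3 CPM, and in M + G 1 to 3 it was 41.5, 99.0 and 60.8 CPM. Every formula library lay below every Sow library, and Milk 2 lay apart from the other 2 Milk libraries. The log2 fold change against Sow was -2.38 (SE 0.515) in M + E2, which is 5.22-fold lower, with an adjusted p of 0.0374 by edgeR's quasi-likelihood test. It was -2.32 (SE 0.514, adjusted p = 0.32) in Soy, -1.82 (SE 0.509, adjusted p = 0.124) in M + G and -1.53 (SE 0.507, adjusted p = 0.372) in Milk. With all 3 Sow libraries the values were -2.27 (0.00721) in M + E2, -2.26 (0.0651) in Soy, -1.73 (0.0261) in M + G and -1.43 (0.102) in Milk, with adjusted p in parentheses.

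IFI44L (ENSSSCG00000027660) lies on chromosome 6 from 134660230 to 134679212, 10.4 kb from its relative IFI44. IFI44L was at 72.5, 91.5 and 73.8 CPM in Sow unnumbered, 2 and 3. The formula libraries ranged from 19.6 CPM in Milk 3 to 47.0 CPM in Soy unnumbered, so all 12 lay under the lowest Sow library. By library they were 36.1, 46.8 and 19.6 CPM in Milk, 47.0, 33.1 and 25.2 CPM in Soy, 38.7, 21.4 and 28.8 CPM in M + E2, and 21.3, 35.4 and 27.7 CPM in M + G. The log2 fold change against Sow was -1.26 (SE 0.349, adjusted p = 0.0466) in M + E2, 2.40-fold lower. In M + G it was -1.37 (SE 0.349, adjusted p = 0.124), in Milk -1.09 (0.369) and in Soy -1.07 (0.32). The fitted value in M + G was thus as large as the called value in M + E2, and a difference between these 2 diets was not tested. IFI44 was at 22.0, 23.3 and 27.0 CPM in Sow and at 8.30 to 22.8 CPM in the formula libraries, with M + G 2 above the lowest Sow library.

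Both calls in M + E2 were sensitive to single libraries. The adjusted p of IFI6 passed 0.05 without M + E2 1 (0.113), M + E2 2 (0.123), M + E2 3 (0.0665), Soy 2 (0.0558), M + G 1 (0.0519) or M + G 3 (0.0509). IFI44L was lost without the same libraries (0.116, 0.142, 0.079, 0.0648, 0.0593 and 0.0606) and without M + G 2 (0.0539). The log2 fold changes stayed between -2.65 and -2.19 for IFI6 and between -1.53 and -1.07 for IFI44L when any 1 library was left out.

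**Figure D2:**
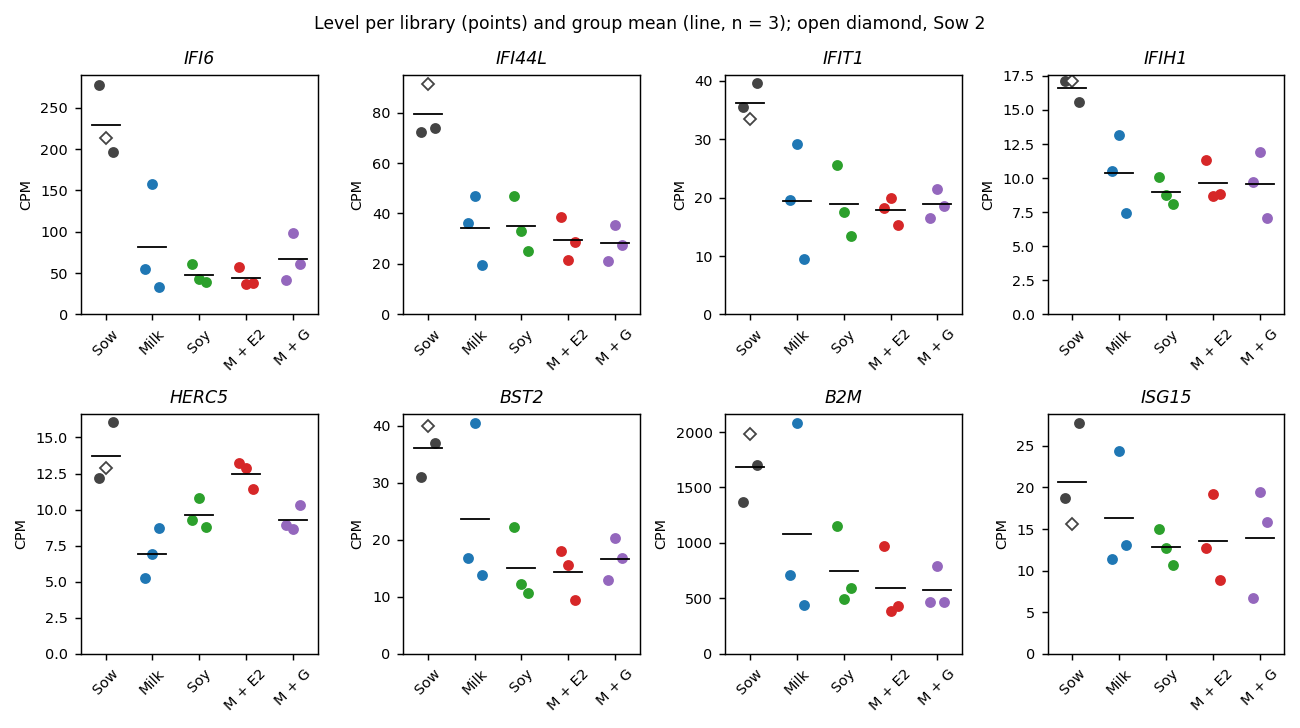
CPM of 8 members by diet group, 1 point per library with the group mean of 3 libraries as a line, and Sow 2 as an open diamond. IFI6, IFI44L, IFIT1 and IFIH1 have no formula library at the Sow level, HERC5 is lowest in Milk, and Milk 2 reaches the Sow level for BST2, B2M and ISG15.

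Against Sow, 2 of the 40 members were called in M + E2 at an adjusted p of 0.05 or less and at least 2-fold, both lower (IFI6 and IFI44L), while 5.0% of all tested genes were called in either direction and 3.56% were called lower. The fitted log2 fold change was below 0 for 31 of 40 members, beside 49.5% of all genes, and its median was -0.36, beside 0.01 for all genes. An unadjusted p below 0.05 with a lower level was found for 11 members (27.5%), beside 19.2% of all genes. In 16 members (40.0%) all M + E2 libraries lay below both Sow libraries used, beside 33.9% of all genes. These counts lean lower than those of all genes, but the median rests on Sow 3: with Sow 2 in its place it was 0.02. The count below 0 was then 20 of 40. The number called was 5 with all 3 Sow libraries (12.5% of members, beside 18.1% of all genes), 7 with Sow 2 in place of Sow unnumbered (17.5% beside 18.4%) and 4 with it in place of Sow 3 (10% beside 21.3%). It was 5 without Milk 2 (12.5% beside 6.39%), 6 without Milk 3 (15.0% beside 9.81%) and 1 without M + G 2 (2.5% beside 1.94%). It was 0 without M + E2 1, 2 or 3, Soy 2, M + G 1 or M + G 3, where 6 to 45 of all genes were called. In bulk tissue, fewer cells of a type and less RNA per cell cannot be told apart.

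In M + G against Sow, no member was called by edgeR's quasi-likelihood test, beside 0.0576% of all genes, and 13 had an unadjusted p below 0.05, all lower, where 13.7% of all genes did. DESeq2 called 2 (IFI6 and IFI44L, 5.0% of members beside 2.19% of all genes) and edgeR's exact test 5 (12.5% beside 6.49%). The quasi-likelihood test called 3 members when Sow 2 replaced Sow unnumbered (7.5% beside 8.32%) and 2 when it replaced Sow 3 (5.0% beside 13.0%). The fitted value was below 0 for 33 of 40 members, beside 48.6% of all genes, and the median was -0.40, or -0.09 with 23 members below 0 when Sow 2 replaced Sow 3. All M + G libraries lay below both Sow libraries used for 16 members (40.0%), beside 28.2% of all genes.

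In Soy against Sow, no member was called, beside 0.0128% of all genes, and 11 had an unadjusted p below 0.05, all lower, where 7.46% of all genes did. IFI6 was called by DESeq2 (0.217% of all genes were) and by the exact test (0.394%) in that comparison. The study, which used the exact test, also listed IFI6 as lower in Soy against Sow. Here 36 of 40 members had a fitted value below 0, beside 48.4% of all genes, and the median was -0.55 (-0.32, with 25 members below 0, when Sow 2 replaced Sow 3). In 23 of the 40 members (57.5%) all Soy libraries lay below both Sow libraries used, beside 18.1% of all genes. With all 3 Sow libraries the count was 19, beside 16.3% of all genes. In Milk against Sow, no member was called, beside 0.0192% of all genes, and 10 had an unadjusted p below 0.05, all lower, where 5.99% of all genes did. DESeq2 called HERC5 there, beside 0.192% of all genes, and the exact test called no member. In that comparison 31 members had a fitted value below 0, beside 49.8% of all genes, and the median was -0.42, between -0.70 without Milk 2 and -0.18 with Sow 2 in place of Sow 3, where 26 members were below 0. All Milk libraries lay below both Sow libraries used for 12 members (30.0%), beside 18.4% of all genes.

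The 4 comparisons share the Sow libraries, so their values are not independent. Across them, 27 of the 40 members had a fitted value below 0 in all 4 and 2 members had one above 0 in all 4.

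**Figure D3:**
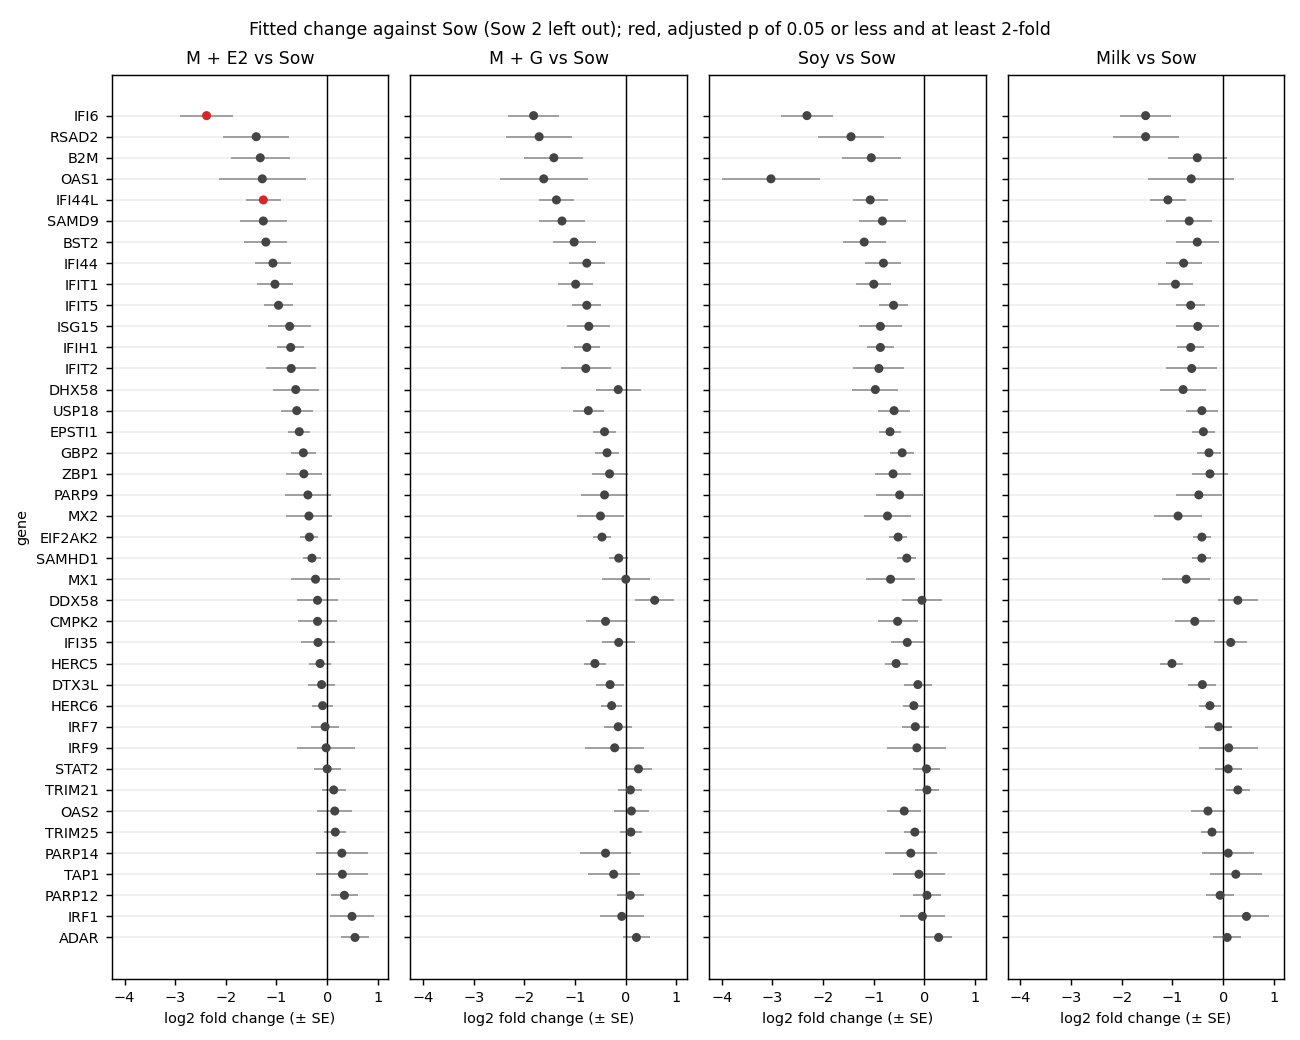
Fitted log2 fold change against Sow (points, with SE as bars) of the 40 tested members in M + E2, M + G, Soy and Milk, ordered by the M + E2 value. IFI6 and IFI44L in M + E2 are red because they passed the adjusted p and the 2-fold threshold, and 31, 33, 36 and 31 members lie to the left of 0.

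Among the sensors of viral RNA and DNA, 5 members were tested. IFIH1 (MDA5, which recognizes long double-stranded RNA) was at 17.1, 17.1 and 15.6 CPM in Sow unnumbered, 2 and 3. It was at 10.5, 13.2 and 7.46 CPM in Milk, 10.1, 8.74 and 8.11 CPM in Soy, 11.3, 8.72 and 8.85 CPM in M + E2, and 9.70, 11.9 and 7.06 CPM in M + G. All 12 formula libraries were thus below Sow, and the largest fitted value was in Soy, -0.87 (SE 0.263, adjusted p = 0.32). EIF2AK2 (PKR, which halts translation on binding double-stranded RNA) ranged from 51.3 to 64.6 CPM in Sow and from 36.9 to 50.6 CPM in the formula groups. It too kept the groups apart, though the gap between the lowest Sow and the highest formula library was small. DDX58, DHX58 and ZBP1 had fitted values against Sow from -0.97 (DHX58 in Soy) to 0.57 (DDX58 in M + G).

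The direct antiviral effectors were the largest role, with 14 tested members. IFIT1 (ENSSSCG00000010452, chromosome 14 from 101237403 to 101249486), which binds viral RNA lacking a host-type cap, was at 35.5, 33.5 and 39.6 CPM in Sow. It was at 19.6, 29.2 and 9.54 CPM in Milk, 25.6, 17.5 and 13.5 CPM in Soy, 18.2, 20 and 15.4 CPM in M + E2, and 16.5, 21.5 and 18.5 CPM in M + G. No formula library reached the lowest Sow library. The log2 fold changes were close to each other, -1.03 (SE 0.347, adjusted p = 0.0684) in M + E2, -1.0 (0.32) in Soy, -0.99 (0.142) in M + G and -0.94 (0.38) in Milk. IFIT5, a relative of IFIT1, was at 37.6, 52.9 and 42.7 CPM in Sow, 26.6, 33.3 and 17.0 CPM in Milk, 35.8, 22.9 and 20.7 CPM in Soy, 17.3, 16.7 and 26.1 CPM in M + E2, and 23.9, 24.7 and 21.9 CPM in M + G. It again separated Sow from every formula library. Its value in M + E2 was -0.96 (SE 0.285, adjusted p = 0.0532).

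BST2 (tetherin, which holds budding virus at the cell surface) was at 31.0, 40.0 and 37.0 CPM in Sow, 16.8, 40.5 and 13.8 CPM in Milk, 22.3, 12.3 and 10.6 CPM in Soy, 18.0, 15.5 and 9.35 CPM in M + E2, and 13.0, 20.2 and 16.8 CPM in M + G. Milk 2 therefore reached the Sow level while no other formula library did. The log2 fold change was -1.21 (SE 0.426, adjusted p = 0.075) in M + E2 and -1.19 (0.32) in Soy. SAMHD1, which depletes nucleotides that viruses need, was at 16.3, 17.7 and 19.0 CPM in Sow, 11.7, 13.7 and 13.8 CPM in Milk, 13.1, 13.3 and 15.3 CPM in Soy, 13.7, 15.6 and 12.6 CPM in M + E2, and 13.0, 17.6 and 17.3 CPM in M + G. It varied least among the members, 1.63-fold between the highest and the lowest library.

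RSAD2 (viperin, which makes a chain-terminating nucleotide) had few reads, 5 to 66 per library. Its level was 3.79, 2.85 and 8.00 CPM in Sow, 0.731, 3.82 and 1.47 CPM in Milk, 3.40, 2.10 and 1.06 CPM in Soy, 2.72, 3.19 and 0.712 CPM in M + E2, and 1.15, 2.21 and 1.98 CPM in M + G. Every M + G library lay below all 3 Sow libraries, the other diets overlapped Sow, and Sow 3 stood highest. RSAD2 had fitted values against Sow between -1.71 in M + G and -1.40 in M + E2, with adjusted p from 0.146 to 0.395. MX1, a GTPase that traps viral nucleoproteins, was at 13.5, 14 and 37.6 CPM in Sow, 8.92, 19.5 and 17.6 CPM in Milk, 13.3, 13.5 and 21.6 CPM in Soy, 23.7, 27.8 and 12.4 CPM in M + E2, and 15.8, 37.9 and 22.7 CPM in M + G. Sow 3 and M + G 2 shared the highest levels, so no group stood apart.

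OAS1 (ENSSSCG00000046640, chromosome 14 from 38851083 to 38867427), which makes the 2'-5' oligoadenylates that activate RNase L, varied widely between libraries of a group. Its counts were 64, 29 and 9 in Sow unnumbered, 2 and 3, which is 8.98, 4.36 and 1.09 CPM. It was at 1.75, 6.78 and 0.979 CPM in Milk, 0.272, 0.885 and 0.588 CPM in Soy, 2.45, 1.35 and 2.14 CPM in M + E2, and 1.28, 3.06 and 0.441 CPM in M + G. The Soy libraries, with 2 to 8 reads, were below all libraries of Sow, Milk and M + E2. The log2 fold change of Soy was -3.03 (SE 0.975, adjusted p = 0.32) against Sow, -2.40 (SE 0.933, adjusted p = 0.999) against Milk and -1.75 (SE 0.962, adjusted p = 0.455) against M + E2. OAS2, 3.38 kb away, did not share this pattern, with 19.3, 26.2 and 31.5 CPM in Soy against 35.9, 22.2 and 31.6 CPM in Sow, 17.5, 32.8 and 31.3 CPM in Milk, 43.6, 40.9 and 24.8 CPM in M + E2, and 27.8, 52.3 and 28.8 CPM in M + G. ADAR, which edits adenosine in double-stranded RNA, had the opposite sign to most members. It was at 49.0, 30.8 and 54.1 CPM in Sow, 43.6, 42.4 and 75.8 CPM in Milk, 49.7, 66.9 and 71.4 CPM in Soy, 83.7, 76.6 and 59.5 CPM in M + E2, and 57.8, 48.9 and 70.8 CPM in M + G. The M + E2 libraries lay above all Sow libraries, and the value was 0.55 (SE 0.275, adjusted p = 0.174).

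In the ISG15 conjugation group, ISG15 itself was at 18.7, 15.6 and 27.8 CPM in Sow, 11.4, 24.4 and 13.1 CPM in Milk, 15.0, 12.7 and 10.7 CPM in Soy, 12.7, 19.2 and 8.85 CPM in M + E2, and 6.64, 19.4 and 15.8 CPM in M + G. Only the Soy libraries lay wholly below Sow, and the fitted value there was -0.87 (SE 0.423, adjusted p = 0.336). HERC5 (ENSSSCG00000030548, chromosome 8 from 130532256 to 130591158), the main ligase that attaches ISG15, had another order of diets. It was at 12.2, 12.9 and 16.1 CPM in Sow, 5.26, 6.90 and 8.69 CPM in Milk, 9.26, 10.8 and 8.82 CPM in Soy, 13.2, 12.9 and 11.4 CPM in M + E2, and 8.94, 8.64 and 10.3 CPM in M + G. Milk had the lowest mean and overlapped M + G, Soy and M + G overlapped each other, and M + E2 overlapped Sow. Against Sow the log2 fold change was -1.01 in Milk (SE 0.227, unadjusted p = 0.000611 from the quasi-likelihood fit across all genes in edgeR, adjusted p = 0.36) and -0.14 in M + E2 (SE 0.224, adjusted p = 0.687). TRIM25, which modifies DDX58, was at 107, 85.5 and 90.4 CPM in Sow, 82.9, 64.3 and 105 CPM in Milk, 89.7, 85.2 and 86.9 CPM in Soy, 111, 105 and 105 CPM in M + E2, and 118, 80.0 and 117 CPM in M + G. The M + E2 libraries lay above all Soy libraries, and the fitted values against Sow were -0.22 to 0.16.

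The 4 transcription factor members had medians of the fitted values against Sow from -0.12 to 0.10. STAT2 was at 23.6, 18.6 and 24.2 CPM in Sow, 17.8, 35.0 and 23.5 CPM in Milk, 24.0, 23.0 and 27.2 CPM in Soy, 31.0, 18.1 and 20.5 CPM in M + E2, and 27.2, 29.9 and 27.6 CPM in M + G. The M + G libraries lay above Sow, with a fitted value of 0.25 (SE 0.265, adjusted p = 0.575), and the other diets overlapped Sow. IRF1 was at 13.7, 10.2 and 17.7 CPM in Sow, 13.9, 34.9 and 15.9 CPM in Milk, 15.5, 11.6 and 18.9 CPM in Soy, 34.3, 17.3 and 12.8 CPM in M + E2, and 11.4, 18.0 and 15.0 CPM in M + G. Milk 2 and M + E2 1 held the highest IRF1 levels, and the remaining libraries overlapped. IRF7, which amplifies type I interferon production, was at 8.98, 6.61 and 10.4 CPM in Sow, 7.02, 11.2 and 8.93 CPM in Milk, 8.17, 7.96 and 9.64 CPM in Soy, 9.39, 10.9 and 7.22 CPM in M + E2, and 6.13, 10.9 and 9.15 CPM in M + G. The groups overlapped for IRF7, and its fitted values against Sow were -0.18 to -0.04.

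The pair of antigen presentation members differed from each other. B2M, the light chain of MHC class I, was at 1370, 1980 and 1700 CPM in Sow, 706, 2080 and 443 CPM in Milk, 1150, 494 and 590 CPM in Soy, 970, 386 and 427 CPM in M + E2, and 462, 794 and 467 CPM in M + G. Milk 2 was the highest library of all, and the other 11 formula libraries were below Sow. The log2 fold change was -1.42 (SE 0.584, adjusted p = 0.176) in M + G, -1.32 (0.132) in M + E2, -1.05 (0.363) in Soy and -0.51 (0.697) in Milk. TAP1, which carries peptides to MHC class I, was at 18.1, 17.6 and 27.8 CPM in Sow, 12.3, 47.6 and 21.9 CPM in Milk, 25.9, 15.5 and 23.0 CPM in Soy, 46.7, 20.6 and 15.0 CPM in M + E2, and 16.1, 21.0 and 21.0 CPM in M + G. As with IRF1, Milk 2 and M + E2 1 stood apart and the diets overlapped. The 5 PARP and ubiquitin ligase members had fitted values against Sow from -0.49 (PARP9 in Soy) to 0.34 (PARP12 in M + E2).

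No member passed the test between formula diets. In M + E2 against Milk, M + G against Milk and Soy against Milk, edgeR's quasi-likelihood test called no member, beside 0.0% of all genes in each, and DESeq2 and the exact test called none either. An unadjusted p below 0.05 was found for 1, 0 and 2 of the 40 members, beside 17.7%, 2.6% and 2.44% of all genes. The median fitted values were -0.08, -0.06 and -0.13, and without Milk 2 they were 0.19, 0.16 and 0.11. HERC5 had the smallest p in M + E2 against Milk, with a log2 fold change of 0.87 (SE 0.208, adjusted p = 0.186) and all M + E2 libraries above all Milk libraries. It was called there without Milk 3, when 8.04% of all genes were called. ADAR (0.47, adjusted p = 0.316) and TRIM25 (0.37, adjusted p = 0.323) came next. In M + G against Milk, HERC5 (0.41), B2M (-0.91) and SAMHD1 (0.28) had the smallest p, each with an adjusted p of 0.94. In Soy against Milk, HERC5 (0.45) and BST2 (-0.68) followed OAS1, each with an adjusted p of 0.999. In Soy against M + E2, no member was called, beside 0.147% of all genes, no member had an unadjusted p below 0.05 (13.0% of all genes did), DESeq2 called none and the exact test called OAS1, beside 1.39% of all genes. The median there was -0.13, and HERC5 (-0.42, adjusted p = 0.40) and OAS2 (-0.55, adjusted p = 0.46) had small p beside OAS1.

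A test for any difference among the 5 diets called no member, beside 0.064% of all genes, and 6 members had an unadjusted p below 0.05 (IFI6, HERC5, IFI44L, IFIH1, IFIT1 and IFIT5), beside 18.1% of all genes. The adjusted p was 0.186 for IFI6, 0.194 for HERC5 and 0.21 for IFI44L. With all 3 Sow libraries, and with DESeq2's likelihood ratio test, IFI6, IFI44L and HERC5 were called (7.5% of members, beside 7.62% and 6.81% of all genes). The same 3 were called without Milk 3, beside 6.67% of all genes, and IFI6 alone without Milk 2, beside 0.0644%.

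Libraries of 1 group differed as a whole for these genes. Taking each gene's log2 CPM relative to its mean over 15 libraries, the median over members was 0.56 in Sow 3, 0.40 in Milk 2, 0.20 in Sow unnumbered and 0.19 in M + G 2. It was -0.35 in M + G 1, -0.31 in M + E2 3 and -0.27 in Milk 1. Sow 3 was the highest library for 15 of the 40 members and Milk 2 for 11. Over all genes the same median lay between -0.04 and 0.04. Libraries of Milk and of M + G thus lay towards both ends of this range.

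Some of this spread went with markers of other cell types. The summed level of all 7 macrophage markers, all above 0, was 586 CPM in Milk 2 and 236 to 393 CPM in the other 14 libraries. The 3 pan-leukocyte markers summed to 125 CPM in Milk 2 and to 64.9 to 100 CPM elsewhere, and the 8 T and NK markers to 46.6 CPM in Milk 2 and 18.7 to 35.0 CPM elsewhere. Milk 2 also had the lowest Leydig (10300 CPM) and Sertoli (1340 CPM) sums. In Sow, whose IFI6 and IFI44L levels were the highest, the macrophage sum was 272 to 333 CPM and the T and NK sum 30.4 to 33.4 CPM, within the range of the formula libraries. Single markers in these lists went in both directions. Of the 12 formula libraries, 10 lay below all Sow libraries for AIF1 and CD2, and 10 lay above them for CD163 and CSF1R. For the pan-leukocyte marker LCP1, 11 lay below and 1 above. Other lists did follow the split between Sow and formula. The sum of the 4 endothelial markers, all above 0, was 220 to 360 CPM in Sow and 366 to 1120 CPM in the formula libraries, with all 12 above Sow, as they were for CDH5 and KDR. JCHAIN, a plasma cell marker, was at 32.1 to 60.5 CPM in Sow and 8.07 to 25.7 CPM in the formula libraries, all 12 below Sow, while the sum of the 4 B and plasma cell markers listed was 177 to 328 CPM in Sow and 87.5 to 261 CPM in the formula libraries, 8 of 12 below Sow. In M + E2 the Leydig sum was 12300 to 13000 CPM, against 19600 to 20700 CPM in Sow, and the Sertoli sum was 3160 to 3280 CPM, against 1880 to 2400 CPM. Not every marker followed its sum. The Leydig marker CYP17A1 was at 5720 to 6510 CPM in M + E2 and 6200 to 7870 CPM in Sow. The Sertoli marker CLDN11 was at 164 to 216 CPM in M + E2 and 188 to 314 CPM in Sow. The part of these cell type markers in the member levels was not tested.

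Ribosomal protein genes were also higher in Sow than in most formula libraries. The summed level of 48 of them was 60300 to 115000 CPM in Sow, with Sow 2 the highest, and 24200 to 60800 CPM in the formula libraries. As an alternative chosen after seeing the data, the mean log2 CPM of these genes per library, not their sum, was used as a covariate. By edgeR's quasi-likelihood test, none of the 15634 tested genes was then called in M + E2 against Sow, members included. The value of IFI6 was -1.43 (adjusted p = 0.315) and that of IFI44L -0.59 (adjusted p = 0.499). The summed level in M + E2 was 24400 to 38600 CPM, below all Sow libraries. This covariate and the diet thus cannot be told apart in that comparison. Elsewhere the covariate raised the number of genes called, from 3 to 10 in Milk against Sow and from 23 to 135 in Soy against M + E2. Among these were 0 members.

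**Figure D4:**
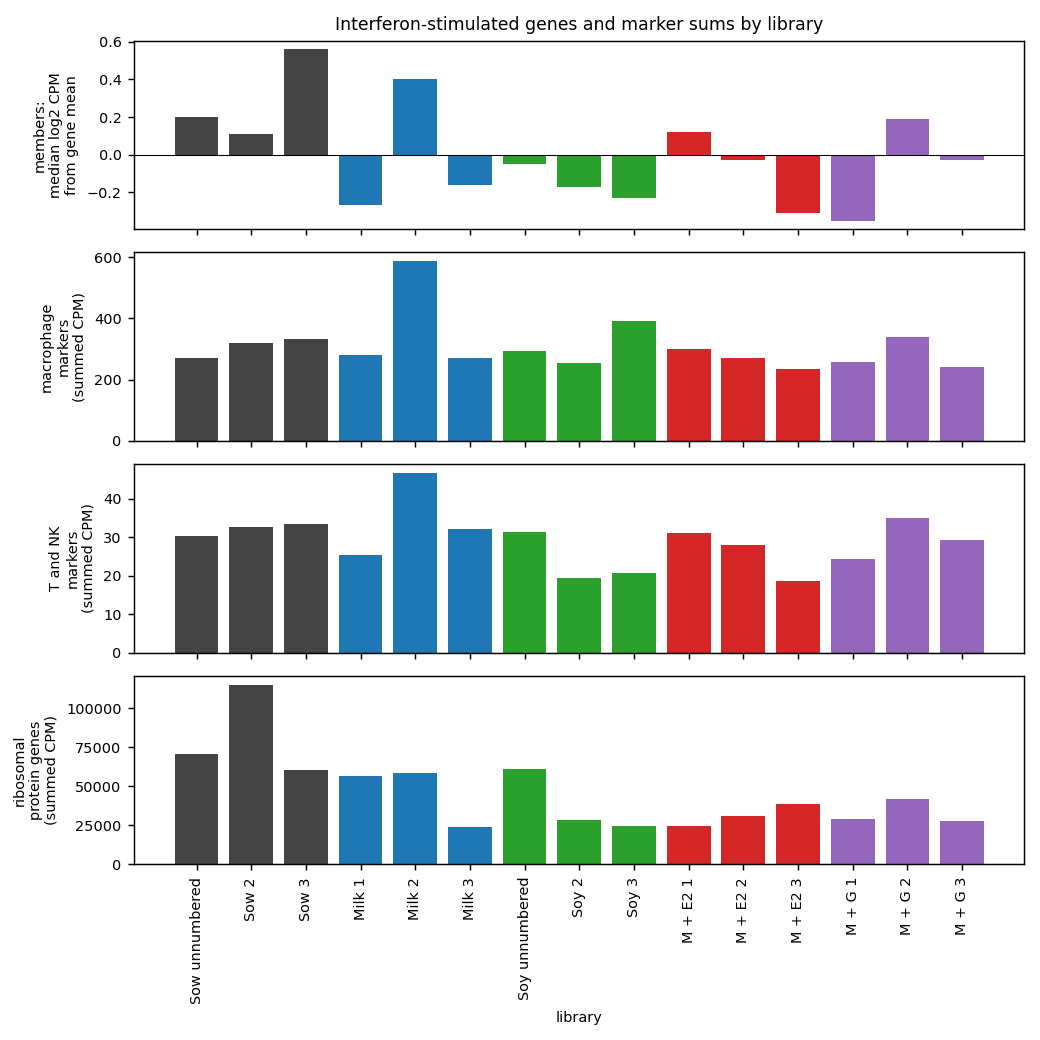
From top to bottom, per library: the median over the 40 members of log2 CPM minus each gene's mean, the summed CPM of 7 macrophage markers, the summed CPM of 8 T and NK markers, and the summed CPM of 48 ribosomal protein genes. Bars are colored by diet, Sow 3 and Milk 2 have the highest member medians, Milk 2 has the highest macrophage and T and NK sums, and Sow 2 has the highest ribosomal sum.

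Further genes of the pathway were counted from a list of 87 that are no members, of which 64 were tested. In M + E2 against Sow, 4 were called lower (6.25%, beside 3.56% of all genes) and 0 higher. By the same quasi-likelihood test in edgeR, 7 had an unadjusted p below 0.05 with a lower level and 6 with a higher one. This was 20.3% of the list, beside 33.8% of all genes. The fitted value in M + E2 was below 0 for 31 of the 64 (48.4%, beside 49.5% of all genes), and its median was 0.04. In M + G, Soy and Milk against Sow edgeR's quasi-likelihood test called 0, beside 0.0576%, 0.0128% and 0.0192% of all genes. The study, which used edgeR's exact test, listed ISG12(A) as lower in Soy against Sow. An unadjusted p below 0.05 was found for 9 lower and 3 higher genes in M + G (18.8% of the list, beside 23.6% of all genes), 6 and 2 in Soy (12.5% beside 15.0%), and 3 and 3 in Milk (9.38% beside 12.1%). The 4 called lower in M + E2 were ISG12(A), PNPT1, NT5C3A and PLSCR1. ISG12(A), a relative of IFI6, was at 175, 143 and 152 CPM in Sow, 41.2, 121 and 29.4 CPM in Milk, 63.2, 37.1 and 31.8 CPM in Soy, 39.7, 26.5 and 25.1 CPM in M + E2, and 28.9, 67.5 and 38.0 CPM in M + G. This was the library pattern of IFI6, with every formula library below Sow and Milk 2 the highest of them, and the log2 fold change in M + E2 was -2.38 (adjusted p = 0.0374). PNPT1, an RNA-degrading enzyme of mitochondria, had a value of -1.24 (adjusted p = 0.0374), NT5C3A, a nucleotidase, -1.46 (0.0436) and PLSCR1, a phospholipid scramblase, -1.09 (0.0448).

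The receptor and kinase genes were not called. The fitted values of IFNAR1 against Sow were -0.26 to -0.13, of IFNGR1 -0.17 to -0.10, of IFNGR2 -0.66 to -0.16, of JAK1 -0.13 to 0.23 and of TYK2 0.29 to 0.51, with 0.174 the lowest adjusted p among them. IFNAR2 was not analysed here. The 22 interferon genes listed held 43 to 72 reads in all per library, and 2 of them were tested. IFN-OMEGA-6 was at 2.68 to 5.99 CPM and IFN-ALPHA-8 at 0.493 to 1.96 CPM, and no interferon gene was called.

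Members that lie side by side on a chromosome were compared by position on Sscrofa11.1. IFI44 and IFI44L lie 10.4 kb apart on chromosome 6, RSAD2 and CMPK2 5.58 kb apart on chromosome 3, HERC5 and HERC6 3.78 kb apart on chromosome 8, MX1 and MX2 21.4 kb apart on chromosome 13, and IFIT1 and IFIT2 33.1 kb apart on chromosome 14. HERC6 did not share the Milk value of HERC5: its fitted value in Milk against Sow was -0.26. DTX3L and PARP9 overlap by 395 bases, and the sources used here state no strand for the counting, so their counts are uncertain. The same holds for reads shared within the IFIT, OAS, MX, HERC and GBP families and between IFI6 and ISG12(A).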

How the data were processed

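RNA from piglet testis was sequenced in 15 libraries, 3 for each of 5 diets, and groups were taken from the labels. Per the study's methods, the authors trimmed short single-end reads and used the CLC Genomics Workbench to map them to a curated pig gene library first and the remainder to the Ensembl genome (Sscrofa11.1), and the authors deposited raw read counts per gene without normalization. Short reads can be shared by members of a gene family, and strand was not given in the sources used here. The number of value columns left unused was 0. The column names of Sow and Soy leave 1 library each without a number.

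Genes were matched by symbol with any _1 or _2 suffix removed, and positions came from RefSeq Sscrofa11.1 (40 members). The members and the lists of pathway genes and markers were chosen with earlier results of these data known. Tests used edgeR 4.0.16 (R 4.3.3) with TMM normalization, filterByExpr at a minimum count of 10 and quasi-likelihood F tests. All 5 groups entered 1 model of 14 libraries, without Sow 2 as in the study. P-values were adjusted by Benjamini-Hochberg over all 15634 tested genes, and genes were called at an adjusted p of 0.05 or less and at least 2-fold. CPM for display were TMM-normalised over 15 libraries, and log2 CPM used a prior count of 1. The scripts were tested on simulated data. DESeq2 1.42.0, edgeR's exact test, other filters and scalings, and leaving out each library were tried as alternatives.

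Values in every library are given for members called in any comparison, for the 3 members with the smallest p in each of 8 comparisons, and for ISG15, MX1, OAS1, IFIT1, RSAD2, STAT2, IRF1, IRF7, B2M and TAP1. A few further members were named after their values were seen (EIF2AK2, EPSTI1, GBP2, IFI44 and those at the ends of a range). Libraries had 6097552 to 9488579 reads on genes (median 8198038), and counting error alone is covered where read numbers are given. Same-numbered Milk and M + G libraries deviated together from their group means over all genes (r = 0.231, 0.492 and 0.414). This was not seen for Milk with M + E2 (-0.324 to -0.0594) or for M + E2 with M + G (0.119, 0.0632 and -0.126). No source used here states a pairing by number, and whether the numbers stand for one was not tested. One gene of the pathway list is not reported here.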

Additional observations from a re-analysis of the deposited data

How the results depend on the processing

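IFI6 and IFI44L in M + E2 against Sow kept their sign under every alternative. The number of members called in M + E2 against Sow, 2 as reported, was 5 with all 3 Sow libraries, 8 in a fit of only the compared groups, 5 with DESeq2, 8 with the exact test and 0 with the ribosomal protein level as a covariate (chosen after seeing the data), while 18.1%, 12.3%, 8.8%, 12.6% and 0.0% of all genes were called, and 0 to 7 when each library was left out. In M + G against Sow it was 3, 5, 2 and 5 under the first 4 of these (10.3%, 5.38%, 2.19% and 6.49% of all genes) and 0 to 3 when each library was left out. In Soy against Sow it was 1 with DESeq2 and 1 with the exact test, beside 0.217% and 0.394% of all genes. It was 1 in Milk against Sow with DESeq2 (0.192% of all genes) and 1 in Soy against M + E2 with the exact test (1.39%). It was 0 to 1 in M + E2 against Milk when each library was left out, with 8.04% of all genes called where it was 1. For any difference among diets it was 3 with all 3 Sow libraries (7.5% of members, beside 7.62% of all genes) and 3 with DESeq2 (7.5% beside 6.81%). With no filter it was 1 (2.33% beside 0.193%). When each library was left out it was 0 to 3, and 6.67% of all genes were called where it was 3. When each library was left out, the median log2 fold change of members ranged from -0.47 to 0.02 in M + E2, -0.51 to -0.09 in M + G, -0.57 to -0.32 in Soy and -0.70 to -0.18 in Milk against Sow. The causes were not tested. Where another Sow library was left out, Sow 2 was put back, so that Sow kept 2 libraries.

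With the library number as a block, 0 members were called in M + E2 against Milk and in M + G against Milk (medians 0.03 and -0.06). This block thus changed no call. A planned count of promoter motifs was not run, as no promoter sequences were used here. At these depths members with few reads per library, such as OAS1 and RSAD2, had wide errors, and smaller differences than 2-fold were not counted as called.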
